A study of Drosophila melanogaster with 48 samples.

Results

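The genes described are dumpy (dpy) and 8 genes for zona pellucida (ZP) domain proteins of the apical extracellular matrix of Drosophila melanogaster, followed through the development of the wing with and without the Hox protein Ultrabithorax (Ubx). The members were piopio (pio), dusky (dy), dusky-like (dyl), miniature (m), nyobe (nyo), neyo (neo), morpheyus (mey) and trynity (tyn), taken by symbol from the annotation of the probe sets. Of these 9 genes, 7 were measured, by 9 of the 18769 probe sets tested, out of 11982 genes with a probe set of their own. No probe set carried the symbol m or nyo, and both were not analysed here. For pio, which had 3 probe sets, the one with the highest mean level, 1638681_at, is described first. The others were 1634075_at for dpy, 1633291_at for dy, 1628067_s_at for dyl, 1638610_at for neo, 1624990_at for mey and 1631714_a_at for tyn.

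Wing discs and wings of 2 fly lines were compared. The experimental line had the genotype w; UAS-UbxIa / + ; nabGal4NP3537 / Tub-Gal80ts, and the control line carried UAS-eGFP in place of UAS-UbxIa. Both lines, and so all 12 groups, carried the same Gal4 driver and the temperature-sensitive Gal80 repressor, so that the transgene was off at 19 °C and on after 16 h at 29 °C, and expression was limited to cells in which the nab driver is active. Wandering larvae of the last instar were staged by gut colour. At 19 °C prepupae and pupae were dissected 12.5 h and 33.5 h after puparium formation (APF), and at 29 °C the times were 6 h and 16 h APF. Each group held 4 biological replicates of about 15 to 20 pooled animals, 48 arrays in all. The lines differ in the transgene, while the temperatures also differ in hours after puparium formation.

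ZP-domain proteins are made as membrane-anchored proteins on the apical face of an epithelium, are cut by proteases and assemble into fibres outside the cell. There they shape the matrix that lies between cell and cuticle, and the cuticle that later replaces it. Dumpy is a giant fibrous protein of this family that holds epithelia to the overlying cuticle, and in the pupal wing it anchors the blade at its margin. In the fly, dusky and miniature mutants have small wings, and several of the other genes shape the denticles of the embryonic epidermis.

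The deposited values are log2 expression values, and differences are on the same log2 scale. Array medians ran from 4.19 to 4.78, and the lowest correlation between replicate arrays across probe sets was 0.9949. No detection calls were at hand, so a level below or close to the array median is not shown to be above background. Values of different probe sets are not comparable with each other, and levels are compared only within a probe set. The 4 measured wing markers lay above the array medians in every group. The values appear to have been normalised separately in 6 sets of 8 arrays, one for each stage and temperature, so a comparison of stages or temperatures also compares sets, and the condition and the set cannot be told apart. Ubx itself was not analysed here, as no probe set names it.

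**Figure D1:**
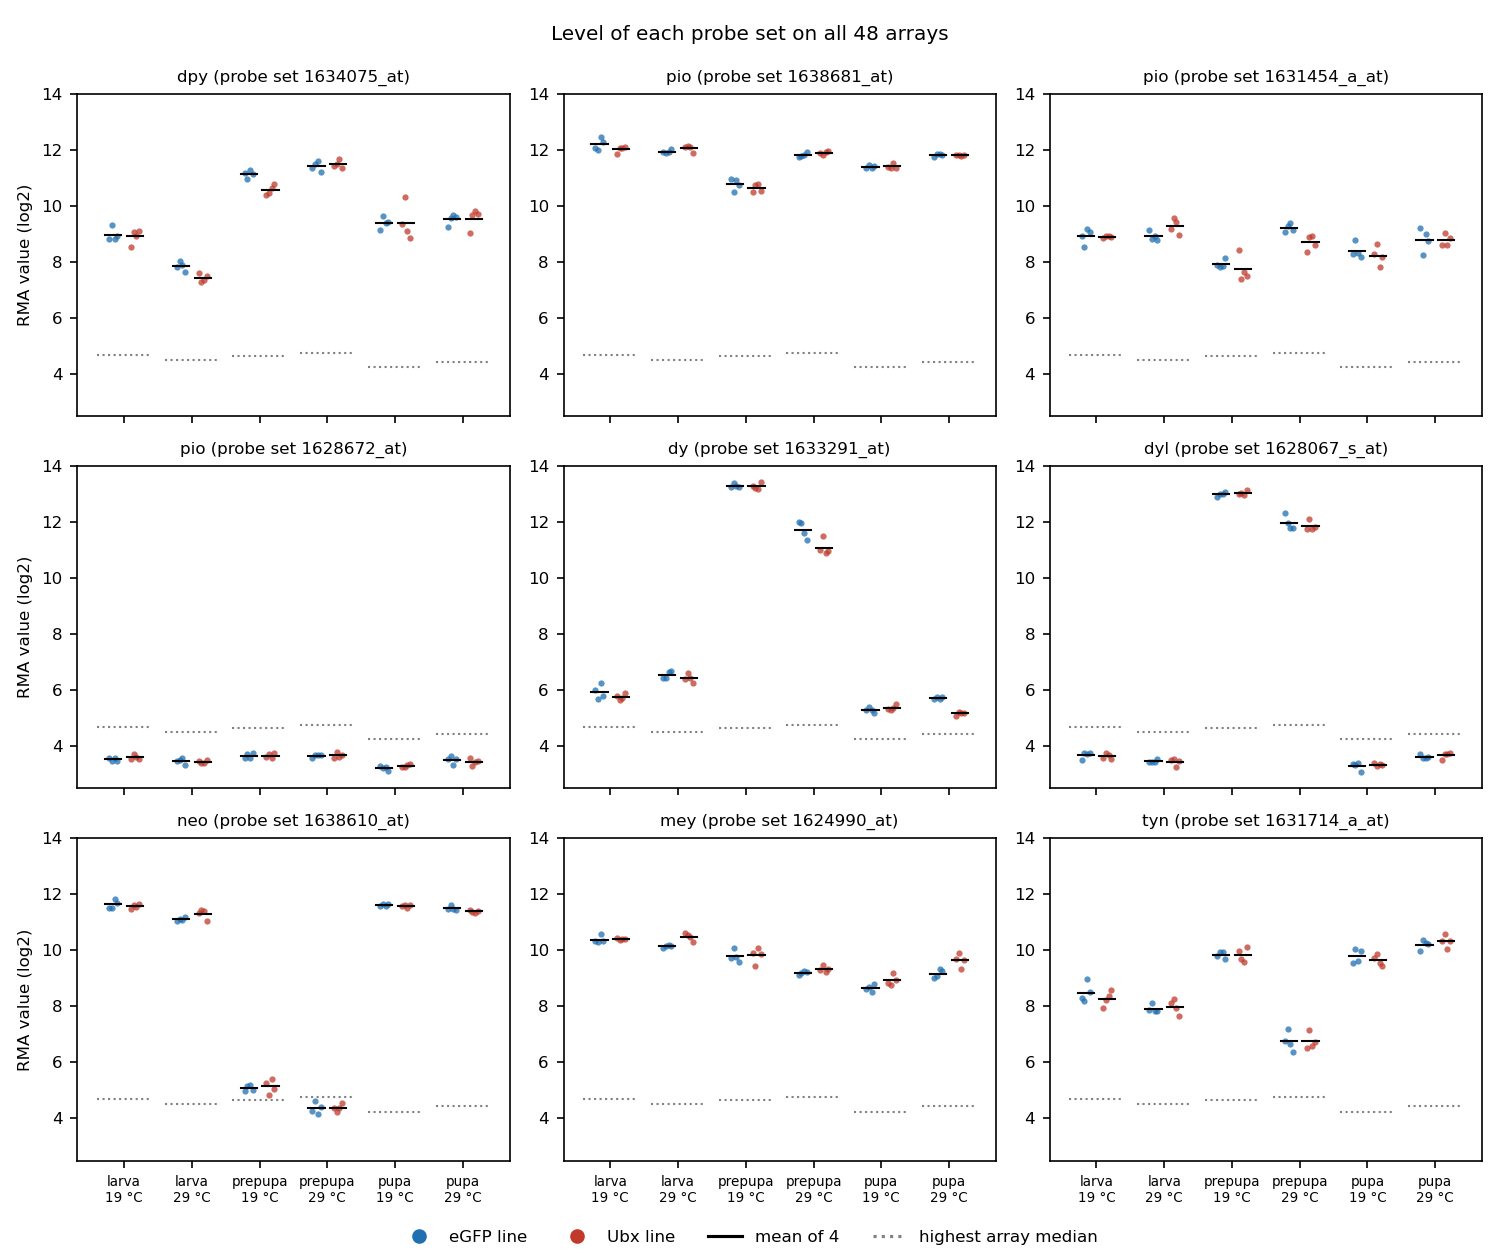
Each panel shows 1 probe set, with its log2 expression value on the vertical axis and the 6 combinations of stage and temperature on the horizontal axis. Points are single arrays of the eGFP line (blue) and the Ubx line (red), black bars are means of 4 and dotted lines are the highest array median of the set. The probe sets of dy and dyl were high in prepupae, at 11.09 to 13.29 and 11.87 to 13.05, while neo was low there, at 4.37 to 5.14.

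The first comparison asked how the genes change as the disc becomes a pupal wing. In the eGFP line dy and dyl rose steeply from larva to prepupa and fell again to pupa, dpy did the same by a smaller amount, and neo did the opposite. Of the 7 genes, 7 were called between larva and prepupa at 19 °C and 6 between prepupa and pupa, by limma with Benjamini-Hochberg adjusted p under 0.05. The share of all probe sets called was 75.7% and 88.1%, so being called between stages is not a mark of these genes. At 29 °C the counts were 6 and 5 of 7 in the eGFP line (72.3% and 85.2% of all probe sets) and 6 and 6 in the Ubx line (71.3% and 83%). The sizes differed widely among the genes. The means of the 12 groups spanned 9.74 for dyl, 8.12 for dy, 7.27 for neo, 4.05 for dpy, 3.58 for tyn, 1.83 for mey and 1.56 for pio, against a median of 1.00 over all 18769 probe sets. The spans of mey and pio were larger than those of 76.8% and 70.5% of all probe sets, and those of the other genes larger than 94.6% to 99.9%.

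The gene dusky-like encodes a ZP-domain protein that shapes bristles, wing hairs and denticles. In eGFP wings at 19 °C its probe set read 3.53, 3.76, 3.73 and 3.76 in the 4 larval replicates, 12.92, 13.01, 13.01 and 13.06 in prepupae, and 3.38, 3.35, 3.39 and 3.10 in pupae. Every prepupal array stood far above every array of the other stages, and all larval and pupal arrays read below the array medians. The rise to prepupa was 9.31 (SE 0.09, adjusted p = 6.1e-49) and the difference from prepupa to pupa was -9.69 (adjusted p = 1.15e-49). Since the low side is not shown to be above background, these sizes describe the array values and not the full change in RNA. The dyl probe set has the suffix that the manufacturer gives to sets that can match more than 1 transcript.

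The gene dusky encodes the ZP-domain protein behind the small dark wing of its mutant. In eGFP wings at 19 °C it read 6.01, 5.69, 6.28 and 5.82 in larvae, 13.24, 13.38, 13.28 and 13.26 in prepupae, and 5.28, 5.42, 5.31 and 5.20 in pupae. The prepupal arrays again did not overlap with those of the other stages, and here the low stages lay above the array medians. The rise was 7.34 (SE 0.11, adjusted p = 4.61e-41), and the difference from prepupa to pupa was -7.99 (adjusted p = 2.39e-42). At 29 °C both changes were smaller in value, 5.18 and -6.01.

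The gene neyo encodes a ZP-domain protein that shapes the denticles of the embryo, and its values ran the other way. In eGFP wings at 19 °C it read 11.51, 11.51, 11.83 and 11.70 in larvae, 4.98, 5.15, 5.20 and 5.03 in prepupae, and 11.59, 11.66, 11.60 and 11.64 in pupae. The larval and pupal arrays overlapped with each other and stood apart from the prepupal ones, which were close to the array medians. From larva to prepupa the difference was -6.55 (SE 0.09, adjusted p = 7.91e-43), and from prepupa to pupa it was 6.53 (adjusted p = 7.88e-43). At 29 °C the prepupal mean of 4.37 lay under the highest array median of its set, and the changes were -6.74 and 7.13.

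The gene dumpy was highest in prepupae. At 29 °C in eGFP wings its probe set read 7.83, 8.03, 7.91 and 7.64 in larvae, 11.36, 11.49, 11.61 and 11.22 in prepupae, and 9.25, 9.58, 9.70 and 9.61 in pupae. At 29 °C the 3 stages did not overlap, with pupae between larvae and prepupae. At 19 °C the eGFP larvae, at 8.816 to 9.325, overlapped with the pupae, at 9.151 to 9.65, and the prepupae stood above both. The rise to prepupa was 3.57 (SE 0.18, adjusted p = 1.22e-21) at 29 °C and 2.16 (adjusted p = 2.41e-14) at 19 °C, and the differences from prepupa to pupa were -1.88 and -1.73.

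The remaining genes changed less or in an order that depended on temperature. The gene trynity, whose ZP-domain protein is also needed in the airway openings of the larva, rose from larva to prepupa by 1.36 (SE 0.16, adjusted p = 7.08e-10) at 19 °C and fell by 1.16 (adjusted p = 3.08e-08) at 29 °C. It then rose to pupa by 3.46 (adjusted p = 1.53e-22) at 29 °C, and differed by -0.05 (adjusted p = 0.763) at 19 °C. The prepupal wing at 29 °C was thus the low point of tyn, at 6.75 in both lines, and pupal wings at 29 °C were its high point, at 10.33 in the Ubx line and 10.21 in the eGFP line.

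The gene piopio encodes a ZP-domain protein that works with Dumpy in holding wing surfaces and tracheal tubes to their matrix. Its main probe set stayed within 10.65 to 12.21 in group means and was lowest in prepupae at 19 °C, where it read 10.97, 10.51, 10.92 and 10.77 in the eGFP line. These arrays lay below all eGFP larval and pupal arrays. It fell from larva by 1.42 (SE 0.08, adjusted p = 1.56e-20), and the rise to pupa was 0.60 (adjusted p = 3.91e-09). At 29 °C the differences were -0.12 and -0.02 and not called, and they depended on scaling, being -0.40 and 0.37 with each array centred on its median, both called. The second probe set of pio, 1631454_a_at, gave -1.0 and 0.46 at 19 °C, both called. At 29 °C its eGFP means were highest in prepupae, at 8.92 in larvae, 9.23 in prepupae and 8.81 in pupae. With the mean of the probe sets of pio, the eGFP difference from prepupa to pupa at 29 °C was called, at -0.19 (limma adjusted p = 0.0117). The third probe set, 1628672_at, read 3.23 to 3.68 in group means, under the array medians throughout.

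The gene morpheyus, another denticle-shaping member of the family, was highest in larvae, at group means of 10.14 to 10.48, and lowest in eGFP pupae at 19 °C, at 8.66. It fell from larva to prepupa by 0.94 (SE 0.11, adjusted p = 1.27e-10) at 29 °C. At 19 °C that difference was -0.59 (adjusted p = 4.36e-06), but it turned to 0.14 (adjusted p = 0.238) after quantile normalisation over all arrays. In the ordering of the 12 group means, neighbouring groups overlapped in 7 to 9 of the 11 steps for each of the 7 genes.

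**Figure D2:**
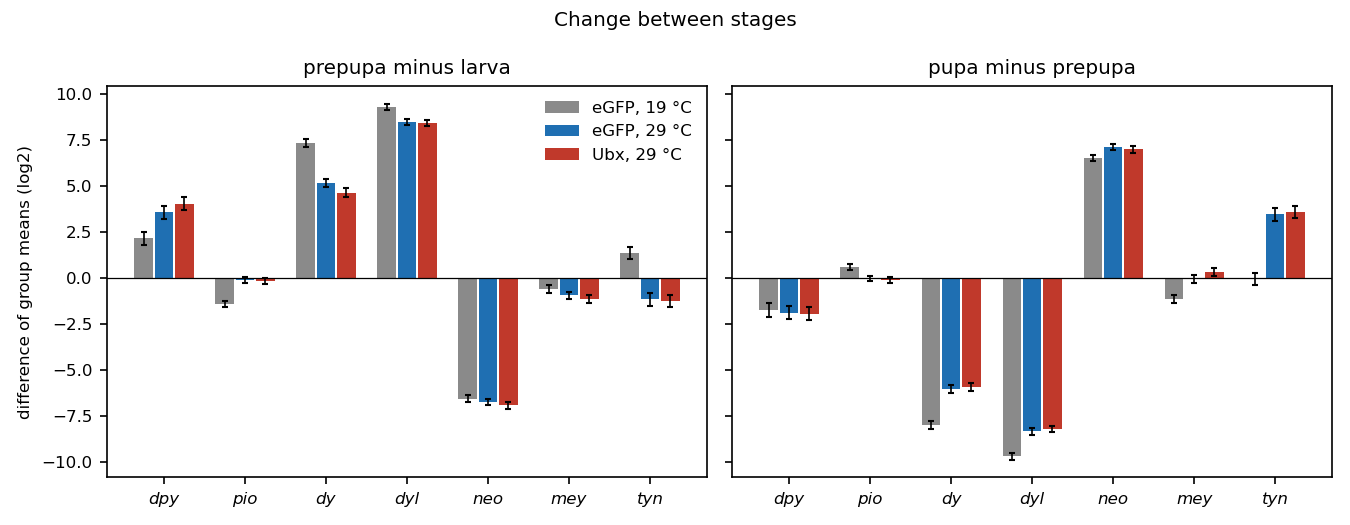
Bars give the change in log2 expression from larva to prepupa (left) and from prepupa to pupa (right) for each measured gene, with 95% confidence intervals of the model, in the eGFP line at 19 °C (grey), the eGFP line at 29 °C (blue) and the Ubx line at 29 °C (red). The bars of dyl reach 9.31 and -9.69, those of neo point the other way, and tyn changes direction between the temperatures.

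The core comparison of the study asks which genes respond to Ubx once it is expressed. Among the 7 genes dy was lower in Ubx wings in prepupae and in pupae, mey was higher in pupae, and no gene was called in larvae. In each stage the other measured members did not pass the test. As each array holds a whole wing, fewer cells with the RNA and less RNA per cell cannot be told apart in any of these differences.

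In prepupal wings at 29 °C, 1 of the 7 genes was called, dy, where 14.2% of all probe sets were called, 8.03% higher and 6.21% lower. The dy probe set read 11.01, 11.49, 10.89 and 10.97 in Ubx wings and 12.001, 11.98, 11.60 and 11.36 in eGFP wings. Ubx replicate 2 read above eGFP replicate 4, so the groups overlapped by this pair, and the other Ubx arrays lay below all eGFP arrays. The difference was -0.64 (SE 0.11, 95% interval -0.87 to -0.42, limma adjusted p = 3.33e-05), or 1.56-fold lower. It stayed called when any single array was left out, between -0.78 and -0.56. At 19 °C, with the transgene off, both lines had a mean of 13.29 and a difference of 0.00 (adjusted p = 0.999).

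The line-by-temperature interaction subtracts the 19 °C difference from the 29 °C difference. For dy in prepupae it was -0.64 (SE 0.16, adjusted p = 0.00589), and with the 29 °C call this made dy Ubx-dependent, as were 5.94% of all probe sets (7.69% were called in the interaction alone). The interaction was no longer called when fitted on the prepupal arrays alone, with the same value and an adjusted p of 0.0549. On the arrays of prepupae at 29 °C, Ubx replicate 2 was also the highest of its group for dyl, at 12.11, and for tyn, at 7.16. The 29 °C call of dy held without this array, as given above, and why the array read high was not tested.

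In pupal wings at 29 °C the level of dy was low in both lines, and its arrays separated fully. Ubx wings read 5.08, 5.24, 5.18 and 5.20, and eGFP wings read 5.69, 5.75, 5.70 and 5.75. The Ubx mean lay 0.74 above the highest array median of its group, 4.43, and the eGFP mean 1.31 above 4.41. Without detection calls, levels this close to the medians are not shown to be above background. The difference was -0.55 (SE 0.11, adjusted p = 0.000551), 1.46-fold lower, and kept to -0.57 to -0.52 when any array was left out. At 19 °C the difference was 0.08 (adjusted p = 0.919), and the interaction of -0.63 (SE 0.16, adjusted p = 0.0146) made dy Ubx-dependent here too, with 2.86% of all probe sets (3.36% in the interaction alone). Wing markers were lower on the same arrays, as given at the end, and their part in the dy difference was not tested.

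The pupal call of mey went the other way. Ubx wings read 9.69, 9.90, 9.34 and 9.66 and eGFP wings 9.01, 9.07, 9.34 and 9.26, a difference of 0.48 (SE 0.11, adjusted p = 0.00165). The groups touched at Ubx replicate 3 and eGFP replicate 3, both at 9.34. At 19 °C the difference was 0.27 (adjusted p = 0.278) and the interaction was 0.20 (adjusted p = 0.641), so mey was higher in the Ubx line but not called Ubx-dependent. In pupae 2 of 7 genes were called, where 8.89% of all probe sets were, 4.36% higher and 4.53% lower.

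In larval discs at 29 °C limma called 0 of 7 genes, with 3 at an unadjusted p under 0.05, where 2.77% of all probe sets were called, 1.39% in each direction. No member was Ubx-dependent in larvae, where 0.368% of all probe sets were and 0.442% were called in the interaction. The closest was mey, which read 10.62, 10.55, 10.46 and 10.31 in Ubx discs and 10.08, 10.14, 10.18 and 10.15 in eGFP discs. These groups did not overlap, the difference was 0.35 (SE 0.11, adjusted p = 0.0708), and without Ubx replicate 4 it was 0.41 (adjusted p = 0.036). For dpy the arrays did not overlap either, at 7.63, 7.30, 7.36 and 7.51 in Ubx discs and 7.83, 8.03, 7.91 and 7.64 in eGFP discs, but the difference of -0.41 (SE 0.18, adjusted p = 0.374) was not called.

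**Figure D3:**
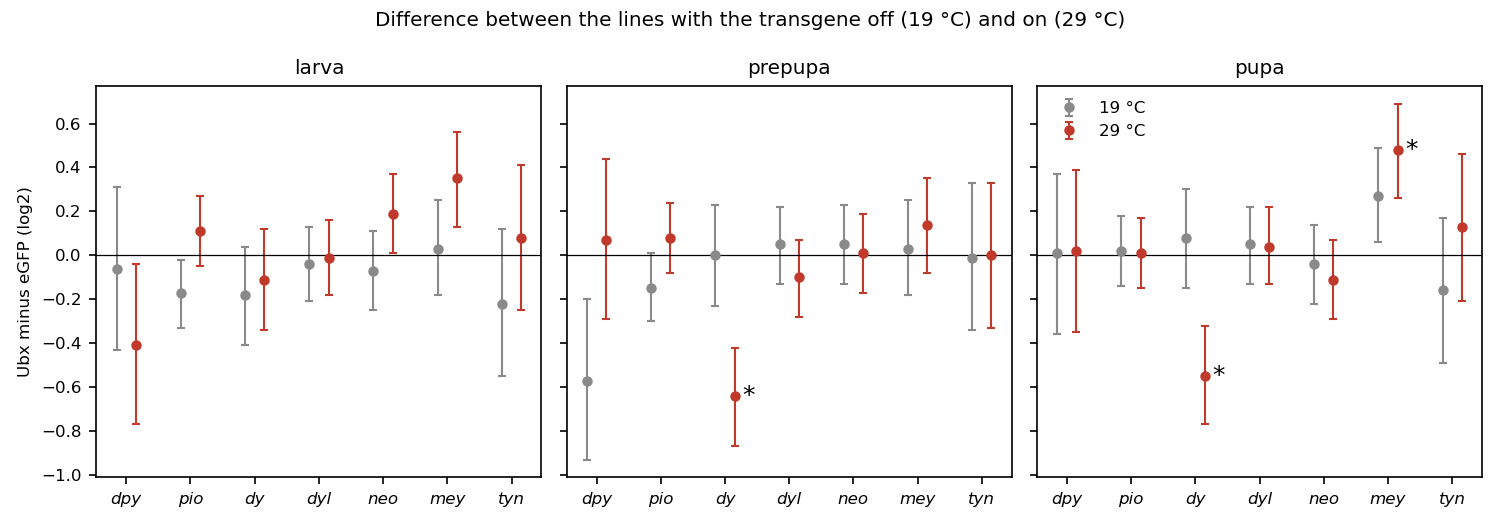
The Ubx minus eGFP difference in log2 expression is shown for each gene at the 3 stages, at 19 °C (grey, transgene off) and 29 °C (red, transgene on), with 95% confidence intervals of the model. Asterisks mark adjusted p under 0.05, which holds for dy in prepupae (-0.64) and pupae (-0.55) and for mey in pupae (0.48).

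The genes dyl and dpy, which share the prepupal peak of dy, and neo and tyn, lowest in prepupae at 29 °C, did not pass the test with dy. In prepupae at 29 °C dyl differed by -0.10 (95% interval -0.28 to 0.07), neo by 0.01 (-0.17 to 0.19), tyn by 0.00 (-0.33 to 0.33) and dpy by 0.07 (-0.29 to 0.44). None of these 4 intervals reached -0.42, the end nearest 0 of the interval of dy, though the difference between the genes was not tested. The second probe set of pio differed by -0.52 (adjusted p = 0.0509) in prepupae, which was not called, where the main one gave 0.08 (adjusted p = 0.635).

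The test of whether the line difference itself changed between stages called dy from larva to prepupa, at -0.53 (SE 0.16, adjusted p = 0.0311), where 6.31% of all probe sets were called. This call is not firm: it was lost on leaving out any 1 of 8 of the 16 arrays, with values from -0.67 to -0.45 and an adjusted p of up to 0.0997. Those arrays were Ubx replicate 2 and eGFP replicates 1 and 2 of the larvae, and Ubx replicates 1, 3 and 4 and eGFP replicates 1 and 2 of the prepupae. From prepupa to pupa limma called 0 of 7 genes, with 1 at an unadjusted p under 0.05, where 9.89% of all probe sets were called. The second probe set of pio was also called from larva to prepupa, at -0.88 (adjusted p = 0.0293).

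With the transgene off at 19 °C, limma called 0 of 7 genes at each stage, with 1 at an unadjusted p under 0.05 in each, against 1.41%, 3.67% and 1.99% of all probe sets in larvae, prepupae and pupae. The largest difference was that of dpy in prepupae, which read 10.39, 10.46, 10.65 and 10.80 in the Ubx line and 11.17, 10.96, 11.29 and 11.15 in the eGFP line. The arrays did not overlap and differed by -0.57 (SE 0.18, adjusted p = 0.0784). Fitted on the prepupal arrays alone, this difference was called (adjusted p = 0.00295), as was the interaction of 0.64 (adjusted p = 0.0117, against 0.137 with all arrays), since the dpy difference was 0.07 at 29 °C.

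The temperature comparison in the eGFP line gives differences in the absence of the Ubx transgene. Between the temperatures the eGFP transgene is also switched on, prepupae and pupae differ in hours after puparium formation, and the arrays belong to different sets. In prepupae 6 of 7 genes were called, where 55.7% of all probe sets were, 38.1% higher and 17.6% lower, and the median over all probe sets was 0.09. The genes tyn, dy, dyl, neo and mey fell and pio rose. The tyn probe set read 9.79, 9.96, 9.96 and 9.70 at 19 °C and 6.78, 7.20, 6.66 and 6.36 at 29 °C, a difference of -3.10 (SE 0.16, adjusted p = 3.17e-20) with no overlap. For dy the difference was -1.56 (adjusted p = 7.24e-16), for dyl -1.03 (adjusted p = 6.89e-14), for neo -0.72 and for mey -0.59, while pio was higher by 1.04 (adjusted p = 2.8e-15). The temperature difference of dy was thus larger in value than its difference between the lines, though only the temperature difference compares different sets of arrays.

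In larvae all 7 genes were called between temperatures, where 63.9% of all probe sets were called, 4.41% higher and 59.5% lower, and their median difference was -0.21. Relative to that shift, dpy, at -1.13 (SE 0.18, adjusted p = 2.08e-06), and neo, at -0.53, moved further down and dy, at 0.60 (adjusted p = 1.94e-05), moved up. The differences of pio, dyl, mey and tyn, from -0.58 to -0.23, were no longer called with each array centred on its median. The call of mey, at -0.24 (adjusted p = 0.0498), was also lost without any 1 of 7 of the 8 arrays, all but 19 °C replicate 2, and that of dyl without 19 °C replicate 2 or 4. In pupae 5 of 7 genes were called, all higher by 0.33 to 0.51, where 51.7% of all probe sets were called, 46% higher and 5.62% lower, and the median was 0.15. The call of tyn, at 0.41 (adjusted p = 0.0342), was lost without 19 °C replicate 1 or 3 or 29 °C replicate 2, 3 or 4. After centring each array, 3 were called: pio and mey higher, and neo, at -0.28, lower.

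Across the 12 group means, dy and dyl had a Pearson correlation of 0.99, and neo stood against them at -0.97 and -0.99. The correlation of dpy with dyl was 0.84 and with neo -0.85. These values describe 12 points in which the lines share stage, temperature and set, and no test applies to them. Over 7232 genes whose group means span at least 1 log2 unit, the patterns most like that of dyl were those of Cyp4s3 (r = 0.999), CG42237 (0.999) and Osi6 (0.998). For dy they were Osi3 (0.995), Osi7 (0.994) and CG14866 (0.994), so that Osiris genes, a family of insect membrane proteins tied to cuticle formation, appear beside both.

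The likeness lists of the other genes were led by CG12880 (0.998), CG10005 (0.995) and Vinc (0.995) for neo, and by Had2 (0.986), CG17298 (0.985) and obst-B (0.985), a chitin-binding protein gene, for dpy. For pio the leading genes were sstn (0.983), Kdm3 (0.982) and Sgt1 (0.98). For mey they were DCTN3-p24 (0.98), Cog1 (0.972) and CG9410 (0.969), and for tyn Nadk2 (0.969), CG31121 (0.952) and Rab23 (0.951).

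**Figure D4:**
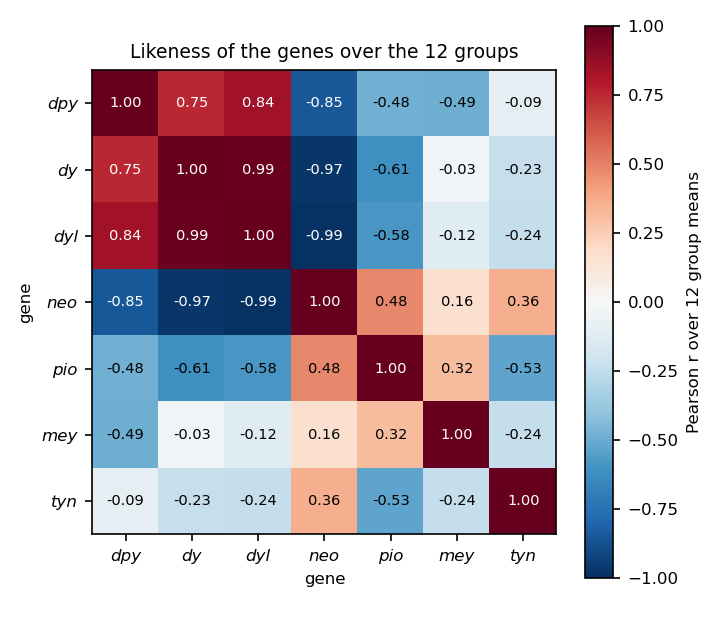
Each cell gives the Pearson correlation of 2 genes, named on the axes, over the 12 group means of log2 expression, from -1 (blue) to 1 (red). A block of dpy, dy and dyl with correlations of 0.75 to 0.99 stands against neo, at -0.85 to -0.99, while pio, mey and tyn follow neither closely.

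Other genes for ZP-domain proteins were read in the same contrasts. Of 7 measured, limma called 0 in larvae at 29 °C, with 2 at an unadjusted p under 0.05, 3 lower in prepupae and 2 lower in pupae. The shares of all probe sets called were 2.77% in larvae, 14.2% in prepupae (6.21% lower) and 8.89% in pupae (4.53% lower). The median differences were -0.08, -0.17 and 0.03, against 0.00, -0.01 and 0.02 over all probe sets. The gene qsm, which encodes a membrane-anchored ZP-domain protein, read 11.23, 11.21, 11.31 and 11.46 in Ubx prepupae and 11.94, 11.87, 11.98 and 11.95 in eGFP prepupae. The arrays did not overlap, and the difference was -0.64 (SE 0.04, adjusted p = 2.21e-15), with an interaction of -0.58 (adjusted p = 2.09e-09). In pupae qsm differed by -0.17 (adjusted p = 0.00536), with an interaction of -0.13 (adjusted p = 0.333).

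CG10005 was lower in Ubx prepupae by a difference of -0.42 (SE 0.09, adjusted p = 0.000547), with an interaction of -0.23 (adjusted p = 0.326). Like neo it had its low point in prepupae, at 5.99 in the eGFP line at 19 °C, between 9.73 in larvae and 9.78 in pupae. The gene pot, whose ZP-domain protein acts with Piopio and Dumpy in wing adhesion, was lower too, with differences of -0.26 in prepupae (adjusted p = 4.37e-05) and -0.20 in pupae (adjusted p = 0.00242). For pot the difference was already there with the transgene off in prepupae, at -0.35 (adjusted p = 3.9e-07). Its interaction was 0.10 in prepupae (adjusted p = 0.479) and -0.05 in pupae (adjusted p = 0.849), neither called.

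Among 4 measured proteases that act on the matrix, Sb, a membrane serine protease that clears apical matrix from everting appendages, was higher in Ubx prepupae. It read 8.28, 8.67, 8.20 and 8.21 in Ubx wings and 7.44, 7.25, 7.10 and 7.15 in eGFP wings, with no overlap. The difference was 1.11 (SE 0.10, adjusted p = 3.63e-11) and the interaction 1.05 (adjusted p = 1.81e-06). The Ubx mean was 8.31 at 19 °C and 8.34 at 29 °C, while the eGFP mean was 8.25 at 19 °C and 7.23 at 29 °C. The metalloprotease gene Mmp2 was higher in Ubx larvae by 0.65 (adjusted p = 0.000361) and in pupae by 0.38 (adjusted p = 0.0404), a call lost on leaving out any 1 of 6 arrays, Ubx or eGFP replicates 2, 3 or 4. A second Mmp2 probe set gave 0.03 and 0.09. The interaction of the first Mmp2 probe set was 0.58 in larvae (adjusted p = 0.202) and 0.18 in pupae (adjusted p = 0.743), neither called. In each stage 1 of the 4 was called, where 2.77%, 14.2% and 8.89% of all probe sets were, and the median differences were 0.15, 0.06 and -0.05.

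Chitin is the polymer of the cuticle laid down after the ZP matrix, and 17 of its genes were measured. From larva to prepupa in eGFP wings 15 of 17 were higher at 19 °C and 14 at 29 °C, where 16.4% and 34.7% of all probe sets were, and from prepupa to pupa 16 and 14 were lower, where 64% and 58.5% were. At 29 °C the Ubx line had 2 higher in larvae, 3 higher and 1 lower in prepupae, and 4 higher and 6 lower in pupae, with medians of 0.00, 0.02 and -0.07. The shares of all probe sets called in these stages were 2.77%, 14.2% and 8.89%. In larvae the 2 were the chitinase gene Cht10, at 0.30 (adjusted p = 0.00993), which lost its call without Ubx replicate 2, and knk, at 0.16 (adjusted p = 0.00773), which lost it without Ubx replicate 1. Neither interaction was called, at 0.18 (adjusted p = 0.929) for Cht10 and 0.14 (adjusted p = 0.632) for knk.

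In prepupae the chitinase gene Cht5 read 7.86, 8.35, 7.31 and 8.05 in Ubx wings and 6.55, 7.30, 5.99 and 7.13 in eGFP wings, a difference of 1.15 (SE 0.19, adjusted p = 1.41e-05). Every Ubx array lay above every eGFP array, by little between Ubx replicate 3 and eGFP replicate 2. The other calls were Cht10 at 0.33, which also differed by 0.29 (adjusted p = 0.0108) at 19 °C, mmy at -0.32, with -0.16 (adjusted p = 0.0446) at 19 °C, and Cda4 at 0.28 (adjusted p = 0.0177). For Cda4 the difference at 19 °C had the opposite sign, -0.31 (adjusted p = 0.0214), and the 29 °C call was lost without Ubx replicate 4 or eGFP replicate 1. The interaction was called for Cht5, at 1.07 (adjusted p = 0.00711), and Cda4, at 0.59 (adjusted p = 0.000604). For Cht10 it was 0.04 (adjusted p = 0.915) and for mmy -0.16 (adjusted p = 0.145), neither called.

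In pupae the chitin deacetylase genes serp and verm were lower, at -1.24 (SE 0.09, adjusted p = 1.13e-14) and -0.95 (SE 0.08, adjusted p = 2.17e-12), and so was Gasp, a chitin-binding protein gene, at -0.88 (adjusted p = 8.86e-07). The gene reb was higher by 0.65 (adjusted p = 0.0297), a call lost on leaving out any 1 of 5 arrays, Ubx replicates 1 or 4 or eGFP replicates 1, 2 or 3. The interaction of reb was 0.61 (adjusted p = 0.343) and not called. It was called for serp, at -1.47 (adjusted p = 8.5e-12), verm, at -1.0 (adjusted p = 1.7e-08), and Gasp, at -1.26 (adjusted p = 2.23e-06). These 3 lower genes are themselves among the 8 measured tracheal markers, of which 5 were lower in Ubx pupae, where 4.53% of all probe sets were. The mean level of the tracheal list, these 3 genes included, was 7.73 to 7.85 on the Ubx arrays and 8.31 to 8.42 on the eGFP arrays. As the list holds these genes, its level is not a measure of trachea separate from them. The defining tracheal gene btl lay under the array medians. The part of trachea in the pupal differences was not tested.

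Of 12 measured trichome genes, which act in forming wing hairs, limma called 0 in larvae and 1 in each of the later stages. The shares of all probe sets called were 2.77% in larvae, 14.2% in prepupae and 8.89% in pupae. The planar polarity effector gene in was higher in Ubx prepupae by 0.36 (SE 0.07, adjusted p = 8.44e-05), and y, the pigmentation gene yellow, in pupae by 0.56 (SE 0.09, adjusted p = 5.27e-06). The interaction was not called for the gene in, at 0.17 (adjusted p = 0.338), and was called for y, at 0.58 (adjusted p = 0.00188). The pupal means of y, 4.38 in the Ubx line and 3.82 in the eGFP line, lay under the highest array medians of 4.43 and 4.41, so neither level is shown to be above background. The list medians were 0.02, 0.06 and 0.02.

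Ecdysone is the steroid hormone that times these stages, and 17 of its response genes were measured. Between the lines at 29 °C limma called 2 of the 17 in larvae, 2 in prepupae and 3 in pupae. Among all probe sets 2.77%, 14.2% and 8.89% were called in these stages. In larvae Hr3, a nuclear receptor gene, read 5.65, 6.0, 5.63 and 3.55 in the Ubx line and 3.60, 4.18, 4.02 and 4.06 in the eGFP line. Ubx replicate 4 lay below every eGFP array, and the eGFP mean of 3.97 lay under the highest array median of 4.49, a level not shown to be above background. The difference of 1.24 (SE 0.34, adjusted p = 0.028) was called, a call lost on leaving out any 1 of 6 arrays, replicates 1, 2 or 3 of Ubx or 1, 3 or 4 of eGFP. The transcription factor gene Sox14 was higher by 0.38 in larvae (adjusted p = 8.26e-06) and by 0.38 in prepupae (adjusted p = 2.81e-06), and usp, which encodes a partner of the ecdysone receptor, by 0.22 in prepupae (adjusted p = 0.000442). Their interactions were called, at 0.42 (adjusted p = 0.0027) and 0.33 (adjusted p = 0.00515) for Sox14 and 0.27 (adjusted p = 0.00521) for usp. That of Hr3 was 1.99 (adjusted p = 0.0378), with larval eGFP replicate 3 at 19 °C at 6.05 and the others at 3.42 to 3.53.

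In pupae the cuticle gene Edg78E was lower, at -1.09 (SE 0.11, adjusted p = 5.16e-10), and so was Eip93F, a late response gene, at -0.63 (adjusted p = 6.96e-05), while br was higher by 0.70 (adjusted p = 0.00111). The other probe sets of br differed by -0.06 to 0.14, and the other one of Eip93F by -0.11. The interaction was called for Edg78E, at -1.12 (adjusted p = 3.18e-06), and Eip93F, at -0.63 (adjusted p = 0.0143). For br it was 0.45 (adjusted p = 0.363) and not called. Between temperatures, eGFP prepupae had 6 of the 17 genes higher and 3 lower at 29 °C, with differences from -3.09 to 3.29. These shares are close to the 38.1% higher and 17.6% lower among all probe sets.

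**Figure D5:**
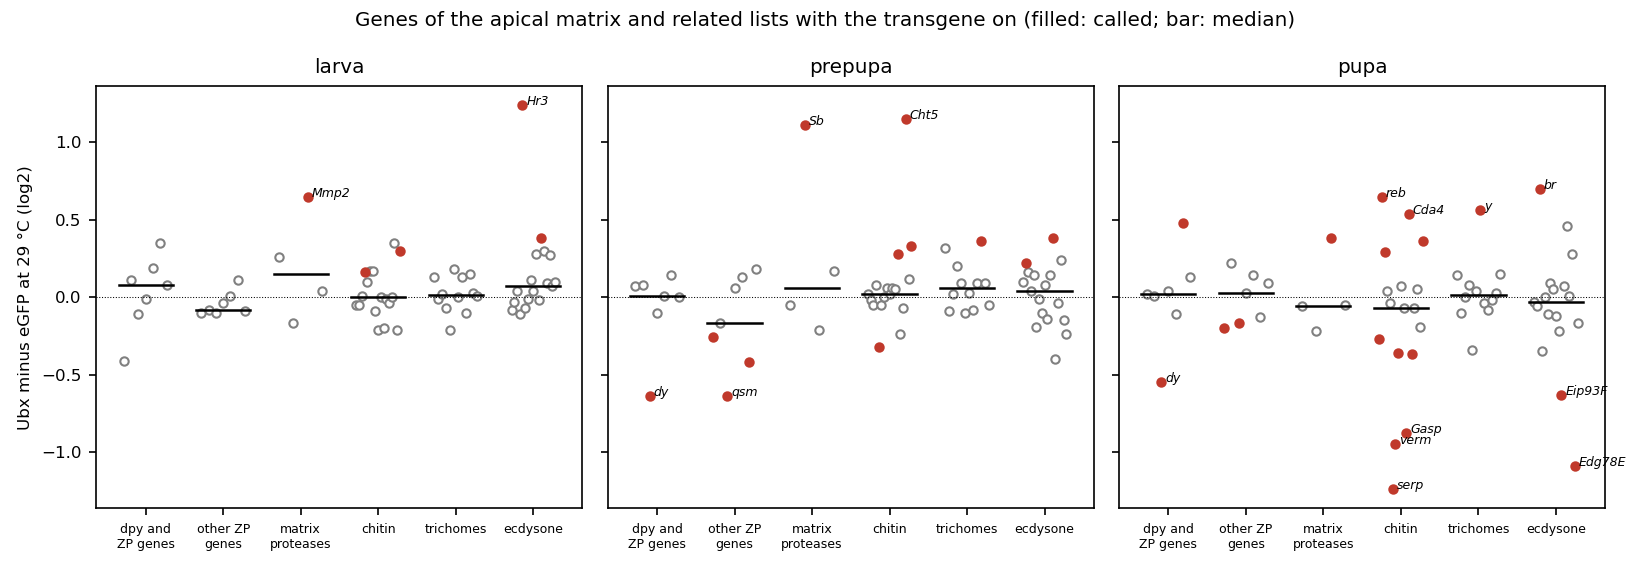
Points are genes, with the Ubx minus eGFP difference in log2 expression at 29 °C on the vertical axis and the gene lists on the horizontal axis, for the 3 stages. Filled points passed adjusted p under 0.05, bars are list medians, and called genes that differ by more than 0.5 are named, such as Sb at 1.11 and serp at -1.24.

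Markers of the wing and of other cells that a wing sample can hold were read as whole lists. Between the lines at 29 °C, 2.77% of all probe sets were called in larvae, 14.2% in prepupae and 8.89% in pupae. Wing markers, of which 4 were measured, were lower in the Ubx line at 29 °C for 3 in larvae and 4 in each later stage. Their list levels were 9.65 to 9.75 on the Ubx arrays and 10.14 to 10.23 on the eGFP arrays of larvae. In prepupae they were 9.31 to 9.57 and 9.68 to 9.86, and in pupae 10.04 to 10.23 and 10.45 to 10.69. Haemocyte markers at 29 °C were higher for 3 of 7 in prepupae and higher for 2 and lower for 1 in pupae, with lz and eater under the array medians in both lines at both stages. Haemocyte list levels were 6.07 to 6.21 on Ubx and 5.83 to 5.96 on eGFP prepupal arrays, and 6.79 to 6.87 and 6.48 to 6.71 on the pupal ones. With the transgene off at 19 °C, 2 of the 7 were higher in prepupae and 1 in pupae, where 3.67% and 1.99% of all probe sets were called. The prepupal list levels at 19 °C were 6.17 to 6.37 on Ubx and 5.94 to 6.07 on eGFP arrays. Tendon markers, 3 in all, were higher for 2 in larvae, where list levels were 8.81 to 9.05 on Ubx and 8.47 to 8.63 on eGFP arrays. They were higher for 2 and lower for 1 in prepupae and higher for 1 and lower for 1 in pupae, with sr under the array medians in both lines of prepupae. The part of these marker differences in those of dy and mey was not tested.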

How the data were processed

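The authors deposited log2 values, which the submitters' processing notes credit to RMA, a method that corrects background, normalises by quantiles and summarises each probe set. Its version is not given in the sources used here. That the scale is log2 was read from the values, which run from 2.37 to 14.6. Sorted values of arrays differed by at most 0.0609 on average within a set of 8 and by at least 0.102 between sets. All 48 value columns were matched to samples, none was left over, and no 2 arrays held identical values. Of 18952 probe sets, 183 controls were left out.

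A mean per group was fitted to all 48 arrays with limma 3.58.1 (lmFit, eBayes) in R 4.3.3, with 36 residual degrees of freedom and 5.16 from the prior. P-values are two-sided and adjusted by Benjamini-Hochberg over 18769 probe sets, and called under 0.05. The procedure was tested on simulated data. The number of arrays limits the precision. Gene names came from the supplied probe set annotation, updated through a RefSeq gene table; files were handled with Python 3.11.15, pandas 2.3.3 and numpy 2.4.6, and figures drawn with matplotlib 3.10.9.

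The members and lists were chosen with earlier results of these data known. All members are named, with up to 4 called genes per related list and stage at 29 °C by size of difference, and for each member the 3 genes of highest correlation. Lists of trichome, ecdysone, chitin, protease and other ZP-domain genes and 9 marker lists were used, of which neuron, glia, notum, muscle and fat body are summarised in the closing section. The alternatives tried were quantile normalisation over all arrays, centring, arrays of the stage alone, a filter on dim probe sets, array weights, a replicate block, the mean of the probe sets of a gene and leaving out each array.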

Additional observations from a re-analysis of the deposited data

Results flagged for a closer look

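For each of the 9 probe sets and 12 groups, 108 in all, the array farthest from the others was compared with the spread of its group, and 10 stood apart, where chance gives about 1 in 20. For dpy this was pupa 29 °C Ubx replicate 1 at 9.03, the others at 9.68 to 9.81. For the main pio probe set it was larva 19 °C Ubx replicate 1 at 11.87, the others at 12.08 to 12.11, and larva 29 °C Ubx replicate 4 at 11.91, the others at 12.10 to 12.13. The pio probe set 1628672_at read 3.60 on prepupa 29 °C eGFP replicate 1, the others at 3.68 to 3.69.

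For dyl, at levels below the array medians, the arrays were larva 19 °C eGFP replicate 1 at 3.53, larva 29 °C eGFP replicate 4 at 3.55, pupa 19 °C eGFP replicate 4 at 3.10 and pupa 29 °C Ubx replicate 1 at 3.53. For mey it was larva 19 °C eGFP replicate 3 at 10.57, the others at 10.28 to 10.32, and for tyn larva 29 °C eGFP replicate 2 at 8.11, the others at 7.84 to 7.86.

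The line difference of dy at 29 °C differed between larva and prepupa by -0.53 (limma adjusted p = 0.0311), by a test of the difference itself. As given above, this call is not firm and was lost on leaving out single arrays. It was also lost when fitted on the arrays of these stages alone (limma adjusted p = 0.0774).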

How the results depend on the processing

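Over the alternatives, 2194 values of member results kept their call or stayed uncalled, 40 lost a call with the same sign, 18 gained one, and 8 that were called before or after changed sign. These 8 were comparisons of stages or temperatures. Uncalled differences near 0 also changed sign, as that of dpy between the lines in larvae at 19 °C, from -0.12 to 0.07 with single arrays left out. Under quantile normalisation over all arrays, dyl and mey between temperatures in larvae became 0.01 and 0.01, mey from larva to prepupa (eGFP, 19 °C) 0.14, and pio from prepupa to pupa at 29 °C 0.26 (eGFP) and 0.24 (Ubx). With arrays centred, pio and mey from prepupa to pupa at 29 °C in eGFP became 0.37 and 0.36, and pio in Ubx 0.24. Counts of called members in larvae at 29 °C became 1 (mey) with quantile normalisation, the stage's arrays alone, the filter on dim probe sets or array weights, and 0 to 1 when single arrays were left out. Between temperatures the count in larvae became 3 with quantile normalisation and 3 with centring, and in pupae 3 with centring. With the stage's arrays alone the count between the lines became 1 (dpy) in prepupae at 19 °C. The count for the change of the line difference from larva to prepupa became 0 with these stages' arrays alone, and was 0 to 1 with single arrays left out. The prepupal interaction had 1 to 2 called members with single arrays left out, the second being pio without eGFP 19 °C replicate 2. The causes were not tested. The labels' replicate numbers were not used to pair the samples. Same-numbered arrays of the lines correlated from -0.145 to 0.361 in their deviations, and differently numbered ones from -0.268 to 0.269. With so few arrays per group, this check cannot exclude a pairing. A fit with the replicate number as a block changed 1 call, mey between temperatures in larvae, at -0.24 (adjusted p = 0.0565). The named genes of related lists were run through these alternatives as a choice made after seeing the data. Of these calls, Mmp2 in pupae was also lost with centring and with array weights, and reb and br in pupae and Hr3 in larvae with the stage's arrays alone. Low levels, as of dyl and neo at their low stages, limit what fold changes can be read.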

Other observations

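The lists of cells outside the wing epithelium that were not described above were also compared between the lines at 29 °C. The shares of all probe sets called were 2.77% in larvae, 14.2% in prepupae and 8.89% in pupae. Of 3 measured neuron markers limma called 0 in each stage. Of 3 glia markers 1 was higher in larvae and 1 in prepupae, of 4 notum markers 1 was higher in pupae, and of 5 muscle and myoblast markers 1 was higher in larvae, 2 in prepupae and 1 in pupae, where 1 was lower. Of 4 fat body markers 1 was lower in larvae and 1 in pupae. The fat body list level ran from 5.03 to 10.33 over the 4 larval eGFP arrays at 29 °C.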
